A study of Mus musculus with 6 samples.

Results

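The omega class of glutathione transferases has 2 genes in the mouse, Gsto1 and Gsto2, which lie next to each other on chromosome 19 with 0 other genes between them in the RefSeq order. Both were measured, each by 1 probe set that the platform annotation names with a single symbol, and they were the 2 members chosen by symbol from 22180 genes with such a probe set. Gsto1 was picked because it differed between genotypes in these same arrays, so its levels and its difference are given as a description with no test. Gsto2 was taken with it as the neighbouring paralog.

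RNA came from 1 dissected tissue, the retinal pigment epithelium (RPE) together with the choroid and the sclera behind it, at an age of 12 months. The 3 5XFAD samples were from mice heterozygous for the transgene, and the 3 wild-type samples were from littermates without it. The 5XFAD line expresses transgenes that include mutant human amyloid precursor protein under the neuronal Thy1 promoter, so that the transgenes are not aimed at the RPE itself. Each sample was hybridised to 1 Affymetrix array, and the series title links the line at this age to changes like those of dry macular degeneration. Whether each sample was a separate animal is not stated in the labels, so the spread behind each p-value is that of these 6 arrays and could be technical in part.

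Glutathione transferases join the tripeptide glutathione to reactive molecules. The omega class stands apart from the others in using a cysteine in its active site, so that its members mainly reduce: they turn dehydroascorbate back into ascorbate, reduce methylated arsenic species and take glutathione off proteins. Gsto1 encodes the widely expressed enzyme, and Gsto2 encodes a paralog with strong dehydroascorbate reductase activity. The human genes have been studied for effects on the age at onset of Alzheimer's disease, and drugs that block release of interleukin 1 were found to bind the human GSTO1 protein.

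The region before each start site is shown because the 2 neighbouring genes gave different values in the same arrays. Each line gives the 250 bases before an annotated start, plus strand, 5′ to 3′, from the RefSeq promoter table of build GRCm38.p6, with matches to the GC box GGGCGG on either strand in capitals. The windows are chr19:47854723-47854972 for Gsto1, chr19:47865295-47865544 for the first start of Gsto2 and chr19:47865544-47865793 for its second start.
Gsto1: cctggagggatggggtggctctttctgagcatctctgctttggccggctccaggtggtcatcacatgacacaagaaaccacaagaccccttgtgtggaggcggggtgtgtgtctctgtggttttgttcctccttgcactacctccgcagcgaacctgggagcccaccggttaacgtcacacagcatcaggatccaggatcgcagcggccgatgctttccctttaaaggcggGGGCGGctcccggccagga
Gsto2, first start: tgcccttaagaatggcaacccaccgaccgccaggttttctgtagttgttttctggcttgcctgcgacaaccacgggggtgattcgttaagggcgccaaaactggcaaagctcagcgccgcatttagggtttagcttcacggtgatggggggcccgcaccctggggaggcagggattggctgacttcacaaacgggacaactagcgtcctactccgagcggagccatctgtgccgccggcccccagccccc
Gsto2, second start: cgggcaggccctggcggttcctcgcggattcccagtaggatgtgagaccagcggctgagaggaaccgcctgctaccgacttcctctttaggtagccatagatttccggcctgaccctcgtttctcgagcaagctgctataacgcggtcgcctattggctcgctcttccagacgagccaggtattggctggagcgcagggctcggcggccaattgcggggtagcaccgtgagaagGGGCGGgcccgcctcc

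The Gsto1 window and the second Gsto2 window each held 1 GC box, whose leftmost base lay 19 and 16 bases before the start, and the first Gsto2 window held 0. A GC box was present in 32.7% of 32851 such windows. The core of the antioxidant response element, which NRF2 binds, was searched as TGACNNNGC on both strands and had 0 matches in each of the 3 windows, against 10.2% of all windows with a match. The AP-1 letters TGANTCA also had 0 matches in each of them (6.75% of all windows). The cAMP response element core TGACG had 1 match in the Gsto1 window, 77 bases before the start, and 0 in both Gsto2 windows (17.8% of all windows). The E-box letters CANNTG had 2 matches in the Gsto1 window and 1 in each Gsto2 window (66.2% of all windows), and every motif was searched on both strands. G and C made up 60% of the Gsto1 window, 60.8% and 63.6% of the Gsto2 windows, and a median of 52.4% over all windows. These are matches of letters only, and these letters can also lie outside the windows.

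Gsto1 signal was high in the 5XFAD arrays and lower in the wild-type arrays. It was 9.25, 9.39 and 9.74 in 5XFAD replicates 1, 2 and 3, and 7.64, 7.41 and 7.47 in wild-type replicates 1, 2 and 3 (log2 intensity, as for all levels here). The groups did not overlap, and the lowest 5XFAD array lay 1.61 above the highest wild-type array. The means were 9.46 ± 0.25 and 7.51 ± 0.12 (SD, n = 3 per group), a difference of 1.95 ± 0.14 (log2, ± SE from limma, as for all differences here) or 3.87-fold. Of all 22180 genes, 4 had a larger absolute difference, namely Krt15, Krt4, Unc13c and Myh1, and 2 had a wider gap between the groups, the epithelial keratin genes Krt15 and Krt4. Unc13c and Myh1 spread widely within groups, by an SD of 1.55 and 0.89 against 0.20 for Gsto1. In whole tissue, more cells that carry a transcript and more transcript per cell cannot be told apart.

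Gsto2 gave similar levels in most arrays of both groups. Its signal was 5.08, 5.03 and 5.35 in the 5XFAD arrays and 5.23, 5.24 and 5.28 in the wild-type arrays. The groups overlapped, with 5XFAD replicates 1 and 2 below every wild-type array and 5XFAD replicate 3 above them. The means were 5.15 ± 0.17 and 5.25 ± 0.02 (SD, n = 3), and the difference of -0.09 ± 0.11 did not pass the test (limma, Benjamini-Hochberg adjusted p = 0.95 over all 22180 genes). Its 95% interval ran from -0.35 to 0.16, that is from 0.785-fold to 1.12-fold. The signal stood at percentiles 31.2 to 36.7 of the genes on each array, whereas Gsto1 stood at 74.2 to 79.7 in wild type and 95.9 to 97.9 in 5XFAD.

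**Figure D1:**
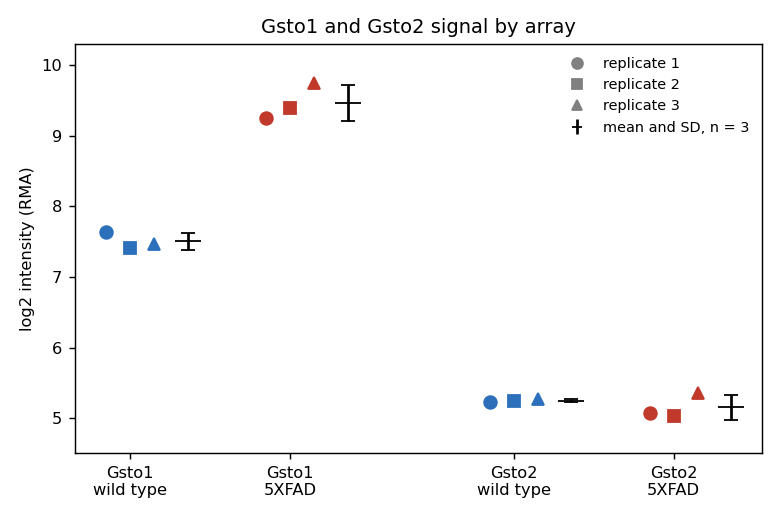
Log2 intensity of Gsto1 and Gsto2 on each of the 6 arrays, with symbols for replicates and black marks for the mean and SD of 3 arrays. Gsto1 lay between 9.25 and 9.74 in 5XFAD and between 7.41 and 7.64 in wild type, while the Gsto2 values of the groups overlapped.

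The genes around the pair all had smaller differences than Gsto1, as did all but 4 of all other genes. Of the 10 measured genes on each side in chromosome order, 0 of 20 passed the adjusted threshold of 0.05 in limma, where 0.0225% of all genes passed. That background, over all genes with Gsto1 and Gsto2 included, is 5 genes, all higher in 5XFAD. It was 19 without wild type replicate 2 and 3 without wild type replicate 3. The split was 5 higher and 0 lower as deposited, 7 and 1 after centring each array on its median, and 8 and 3 after another quantile normalization. At an unadjusted p under 0.05 there were 2 of 20 (6.28% of all genes), the sorting receptor gene Sorcs1 at 0.48 ± 0.20 and the ubiquitin ligase gene Neurl1a at -0.31 ± 0.12 (limma, Benjamini-Hochberg adjusted p = 0.75 each). Sorcs1 lay at 0.28 without wild type replicate 3 and at 0.70 without wild type replicate 2. The groups did not overlap in 1 of 20, Neurl1a, against 11.3% of all genes. The median difference of the 20 was 0.03, and it was -0.01 over all genes.

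On the Gsto1 side the 5 nearest measured genes differed by -0.01 ± 0.10 for the cilium gene Cfap43, 0.04 ± 0.12 for the DNA repair gene Sfr1, 0.17 ± 0.11 for Col17a1, -0.06 ± 0.19 for the kinase gene Slk and 0.08 ± 0.11 for the predicted gene Gm19557. On the Gsto2 side they differed by -0.14 ± 0.11 for the cilium gene Cfap58, -0.09 ± 0.14 for Sorcs3, 0.48 ± 0.20 for Sorcs1, -0.22 ± 0.12 for AA387883 and 0.03 ± 0.10 for the aminopeptidase gene Xpnpep1. None of these 10 passed in limma (Benjamini-Hochberg adjusted p from 0.75 to 0.99), where 0.0225% of all genes passed. Col17a1, a collagen of the hemidesmosomes of basal epithelial cells, was 5.82, 5.91 and 6.10 in 5XFAD and 5.70, 5.78 and 5.83 in wild type, so that its groups overlapped by a narrow margin.

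**Figure D2:**
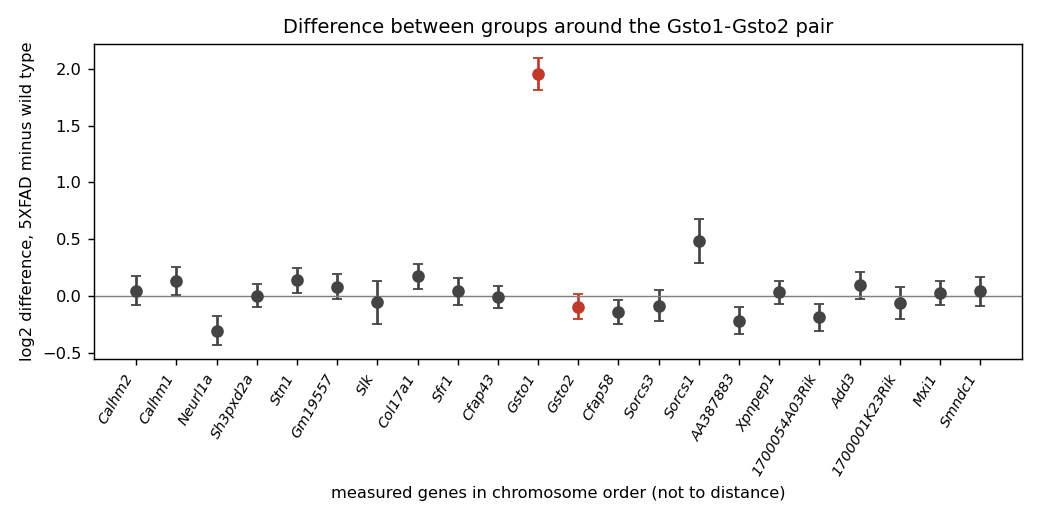
Log2 difference between 5XFAD and wild type (points) with its SE (bars) for Gsto1, Gsto2 and the 10 measured genes on each side, in chromosome order and not to distance. Gsto1 stands at 1.95, and the other 21 genes lie between -0.31 and 0.48.

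The other measured glutathione transferases all had smaller differences than Gsto1, as did all but 4 of all other genes. Of 28 genes on the list, covering the cytosolic, mitochondrial and membrane-bound families, 24 were named by a single-symbol probe set. In limma 0 passed in either direction (0.0225% of all genes). At an unadjusted p under 0.05, 3 of 24 were higher and 0 lower, beside 2.89% of all genes higher and 3.39% lower. Differences ran from -0.29 to 0.65 with a median of 0.03, and 16 of 24 were positive.

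The members of smallest p were the membrane-bound detoxification enzyme gene Mgst1, Alox5ap, whose product presents arachidonic acid to the leukotriene pathway, and Hpgds, the sigma class enzyme that makes prostaglandin D2. Mgst1 was 8.91, 9.17 and 9.02 in 5XFAD and 8.65, 8.78 and 8.66 in wild type, without overlap, a difference of 0.34 ± 0.11 (limma, Benjamini-Hochberg adjusted p = 0.63). Alox5ap was 8.69, 8.56 and 8.50 against 8.29, 8.09 and 8.42, also without overlap, a difference of 0.32 ± 0.12 (0.70). Hpgds differed by 0.46 ± 0.17 (0.70) with overlapping groups. The groups did not overlap in 2 of the 24 genes, both higher, beside 11.3% of all genes.

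Class by class, the cytosolic members lay on both sides of 0. The 6 mu class genes ran from -0.05 for Gstm4 to 0.23 for Gstm7, the 3 pi class genes from 0.01 to 0.21, and the 4 theta class genes from -0.13 for Gstt1 to 0.20 for Gstt2. Mu and pi class paralogs are so alike in sequence that their probe sets may share signal. Of the 2 alpha class genes, Gsta4, which detoxifies the lipid peroxidation product hydroxynonenal, differed by -0.10 ± 0.11. Gsta3 had the largest positive difference on the list, 0.65 ± 0.39, but its wild-type arrays spread from 6.45 to 8.21 and enclosed 2 of its 3 5XFAD values of 7.43, 8.23 and 7.86 (limma, Benjamini-Hochberg adjusted p = 0.90).

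**Figure D3:**
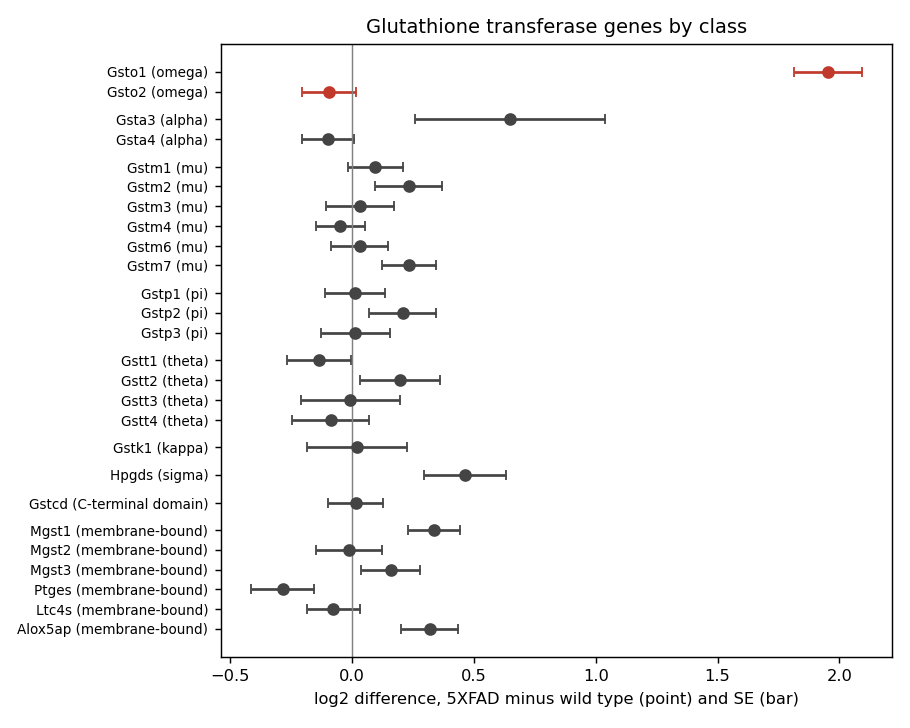
Log2 difference between 5XFAD and wild type (points) with its SE (bars) for the 2 omega class genes in red and the 24 other measured glutathione transferase genes, grouped by class. Gsto1 lies at 1.95, and the other genes lie between -0.29 and 0.65.

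The chloride intracellular channel proteins share the fold of the omega class. All 5 of their genes were measured, and in limma 0 passed (0.0225% of all genes). At an unadjusted p under 0.05 there was 1, lower in 5XFAD (3.39% of all genes). That was Clic6, at -0.34 ± 0.14 (limma, Benjamini-Hochberg adjusted p = 0.78). Clic1 differed by 0.11 ± 0.12 and Clic3 by -0.11 ± 0.11, which ran from 0.037 to 0.21 and from -0.18 to -0.041 as each array was left out in turn.

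Genes that make, import or recycle glutathione gave mixed differences. Of 23 on the list 21 were measured and 0 passed in limma (0.0225% of all genes), with 2 higher and 1 lower at an unadjusted p under 0.05 (2.89% and 3.39% of all genes) and a median difference of -0.02. Slc7a11, the cystine importer that feeds glutathione synthesis, was 7.15, 7.34 and 6.70 in 5XFAD and 5.96, 6.73 and 5.78 in wild type, a difference of 0.91 ± 0.25 (limma, Benjamini-Hochberg adjusted p = 0.50). Its groups overlapped by wild type replicate 2 alone, and without that array the difference was 1.19 (limma, Benjamini-Hochberg adjusted p = 0.072). That was the largest value as each array was left out in turn, and the lowest was 0.72 (limma, Benjamini-Hochberg adjusted p up to 0.91 among these fits). The difference was 0.44 when the 2 Slc7a11 probe sets were averaged. Gclc and Gclm, the 2 subunits of the enzyme that limits glutathione synthesis, differed by -0.18 ± 0.11 and -0.26 ± 0.13, and the reductase gene Gsr by -0.08 ± 0.09. Hagh, a glyoxalase gene, differed by -0.25 ± 0.09 and the peptidase gene Ggt5 by 0.27 ± 0.11, both without overlap, at Benjamini-Hochberg adjusted p of 0.73 and 0.76 in limma. Ggt5 lay at 0.17 without 5XFAD replicate 3. Of the 21 genes, 2 were higher and 4 lower without overlap, beside 11.3% of all genes in either direction.

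Glutaredoxins and thioredoxins reduce protein thiols, a reaction that omega class enzymes share. Of 22 genes on that list 19 were measured, 0 passed in limma (0.0225% of all genes), and 1 was higher at an unadjusted p under 0.05, or 5.26% of the list beside 2.89% of all genes. Glrx, the cytosolic glutaredoxin gene, differed by 0.50 ± 0.21 (limma, Benjamini-Hochberg adjusted p = 0.78), at 6.97, 7.35 and 6.64 against 6.56, 6.81 and 6.10, with overlapping groups. It lay at 0.30 without wild type replicate 3 and at 0.31 without 5XFAD replicate 2. Txn1 differed by 0.22 ± 0.10 and Glrx3 by 0.20 ± 0.12, the latter from 0.12 to 0.28 as arrays were left out.

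Ascorbate uptake and recycling genes, the other partners of dehydroascorbate reduction, showed 0 calls among 13 measured in limma, and 0 of them had an unadjusted p under 0.05, beside 0.0225% and 6.28% of all genes. The ascorbate transporter gene Slc23a2 differed by -0.01 ± 0.10 and Slc2a1, whose product carries glucose and dehydroascorbate, by 0.01 ± 0.12. The members of smallest p were the cytochrome b561 family gene Cyb561d2 (-0.29 ± 0.13), the transporter family gene Slc23a3 (0.18 ± 0.10) and the reductase gene Cyb5r3 (0.26 ± 0.17). Cyb561d2 lay at -0.16 without 5XFAD replicate 3. Cyb5r3 lay at 0.11 without wild type replicate 3, 0.13 without 5XFAD replicate 1 and 0.40 without 5XFAD replicate 3.

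Among 10 genes of arsenic handling, all measured, 0 passed in limma (0.0225% of all genes), with 2 higher and 1 lower at an unadjusted p under 0.05 (2.89% and 3.39% of all genes). As3mt, the methyltransferase that makes the arsenic species reduced by Gsto1, differed by -0.02 ± 0.12. Aqp3, a glycerol and water channel of surface epithelia that also carries arsenite, was 6.62, 6.52 and 7.37 in 5XFAD and 5.07, 5.17 and 5.36 in wild type. Its groups were 1.16 apart, and the difference of 1.64 ± 0.21 lay just short of the threshold (limma, Benjamini-Hochberg adjusted p = 0.054). Aqp3 passed without 5XFAD replicate 3 (0.025) and under 5 other alternatives (0.016 to 0.0496). It did not pass when any other array was left out (limma, Benjamini-Hochberg adjusted p from 0.070 to 0.21). The transporter genes Abcb1b and Abcc1 differed by 0.35 ± 0.12 (0.67) and -0.28 ± 0.12 (0.76). Of the 10 genes, 3 were higher and 1 lower without overlap, beside 11.3% of all genes in either direction.

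NRF2 is the transcription factor that switches on many glutathione transferases under oxidative stress. The factor and its targets gave differences on both sides of 0. Of 30 genes 25 were measured, 0 passed in limma (0.0225% of all genes), and 1 was higher and 2 lower at an unadjusted p under 0.05 (2.89% and 3.39% of all genes). The median difference was 0.01, with 14 positive and 11 negative. The targets Nqo1, Hmox1, Srxn1 and Txnrd1 differed by 0.01 ± 0.09, 0.08 ± 0.12, 0.05 ± 0.10 and -0.03 ± 0.12, and Nfe2l2, the gene of NRF2, by -0.07 ± 0.11. Slc7a11, Abcc1 and Gclm, also on this list, differed by 0.91 ± 0.25, -0.28 ± 0.12 and -0.26 ± 0.13. Their Benjamini-Hochberg adjusted p in limma was 0.50, 0.76 and 0.84. Me1, the malic enzyme gene, had the smallest p, at 9.21, 9.07 and 8.95 in 5XFAD and 9.53, 9.68 and 9.54 in wild type, a difference of -0.51 ± 0.11 without overlap (limma, Benjamini-Hochberg adjusted p = 0.34). Me1 was lower in every 5XFAD array than in any wild-type array, the reverse of the order of Gsto1. Of the 25 genes, 0 were higher and 2 lower without overlap, beside 11.3% of all genes in either direction.

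Of 20 interleukin 1 and inflammasome genes, all measured, 0 passed in limma (0.0225% of all genes), while 3 were higher and 0 lower at an unadjusted p under 0.05 (2.89% and 3.39% of all genes). Il1r2, a decoy receptor gene for interleukin 1, was 4.62, 4.68 and 4.56 against 4.15, 4.01 and 4.36, a difference of 0.45 ± 0.11 without overlap (limma, Benjamini-Hochberg adjusted p = 0.45). Of the 20 genes, 2 were higher and 1 lower without overlap, beside 11.3% of all genes in either direction. Il18bp, which encodes an interleukin 18 antagonist, differed by 0.33 ± 0.13 and the DNA sensor gene Aim2 by 0.29 ± 0.12. Il1b differed by 0.08 ± 0.13, Nlrp3 by -0.16 ± 0.10 and Nek7, a kinase gene of the inflammasome, by 0.03 ± 0.12. Il1b and Nlrp3 were dim, at 4.65 to 5.12 and 4.68 to 4.97 over all arrays.

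Among the markers of surface epithelium, the conjunctiva and cornea, 13 of 20 had a positive difference and 7 a negative one, with a median of 0.27. The mean of the 20 measured markers was 6.21, 6.44 and 6.62 in 5XFAD replicates 1, 2 and 3 and lay between 5.69 and 5.72 in wild type. Adjusted over all genes, 4 of the 20 passed as higher in limma and 0 as lower, namely the keratin genes Krt4, Krt6a, Krt15 and Krt13, beside 0.0225% of all genes. These 4 are themselves part of that share. The list was chosen with earlier results of these data known, so its counts are no test of the cell type. Without wild type replicate 3 only Krt4 of the 20 passed, and 3 to 5 passed when another array was left out. Krt15, a keratin of basal surface epithelium, was 7.75, 8.16 and 9.37 in 5XFAD and 5.12, 4.74 and 4.76 in wild type, a difference of 3.55 ± 0.34, and Krt4, a keratin of mucosal epithelium, was 7.13, 7.87 and 8.12 against 4.39, 4.44 and 4.66, a difference of 3.21 ± 0.22 (limma, Benjamini-Hochberg adjusted p = 0.013 and 0.0018). The groups did not overlap in 9 of the 20, all higher in 5XFAD, beside 11.3% of all genes. The 7 with a negative difference were Dsp, Muc5ac, Muc16, Cdh1, Aldh3a1, Krt7 and Perp, at -0.19 to -0.01. Of the defining markers, Epcam was 3.89 ± 0.10 against 3.81 ± 0.03 (SD, n = 3), Trp63 5.26 ± 0.07 against 5.18 ± 0.21 and the corneal gene Aldh3a1 8.75 ± 0.44 against 8.82 ± 0.25, and 12 of the 20 lay below the median level of all genes. Within groups, the deviations of Gsto1 from its group means correlated with those of the list mean at r = 0.83 and with those of Krt15 at r = 0.98 (Pearson, 6 arrays with 4 residual degrees of freedom, a description). The r of the list mean rested mainly on the 5XFAD arrays. In wild type the list mean moved little, at 5.691, 5.704 and 5.717 in replicates 1, 2 and 3, and Gsto1 was highest in replicate 1, where the list mean was lowest. Krt15 had the highest r of the 20 markers. Their median r was 0.46, 16 of them had a positive r against 50.3% of all genes, and Krt13 had r of -0.10. The part of surface epithelium in the Gsto1 difference was not tested.

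The RPE markers lay the other way, at list means of 10.12 to 10.25 in 5XFAD and 10.43 to 10.61 in wild type. Of 16, 0 passed in limma (0.0225% of all genes), with 12 lower and 1 higher at an unadjusted p under 0.05 (3.39% and 2.89% of all genes). Skeletal muscle markers overlapped between the groups, at 6.30 to 7.43 and 5.75 to 7.02, as did those of macrophages and microglia (8.35 to 8.69 and 8.37 to 8.41), endothelium (8.79 to 9.16 and 9.01 to 9.06), fibroblasts and sclera (10.08 to 10.38 and 10.08 to 10.32), melanocytes (11.02 to 11.35 and 10.95 to 11.21), photoreceptors (5.12 to 6.05 and 5.23 to 6.09), mast cells (6.53 to 6.84 and 6.16 to 6.64), T cells (5.50 to 5.82 and 5.74 to 5.94), Schwann cells (8.17 to 8.24 and 8.15 to 8.22) and adipocytes (5.33 to 5.44 and 5.21 to 5.41). Lens markers lay at 5.75 to 5.81 and 5.82 to 5.94, without overlap. At an unadjusted p under 0.05, 3 of 6 T cell markers were lower, beside 3.39% of all genes. Higher were 2 of 6 mast cell markers, 3 of 12 skeletal muscle markers, 3 of 12 macrophage and microglia markers and 2 of 11 fibroblast and sclera markers, beside 2.89% of all genes. The other 6 of these lists had 0. None of the members of these 11 lists passed in limma (0.0225% of all genes), and their part in the Gsto1 difference was not tested.

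**Figure D4:**
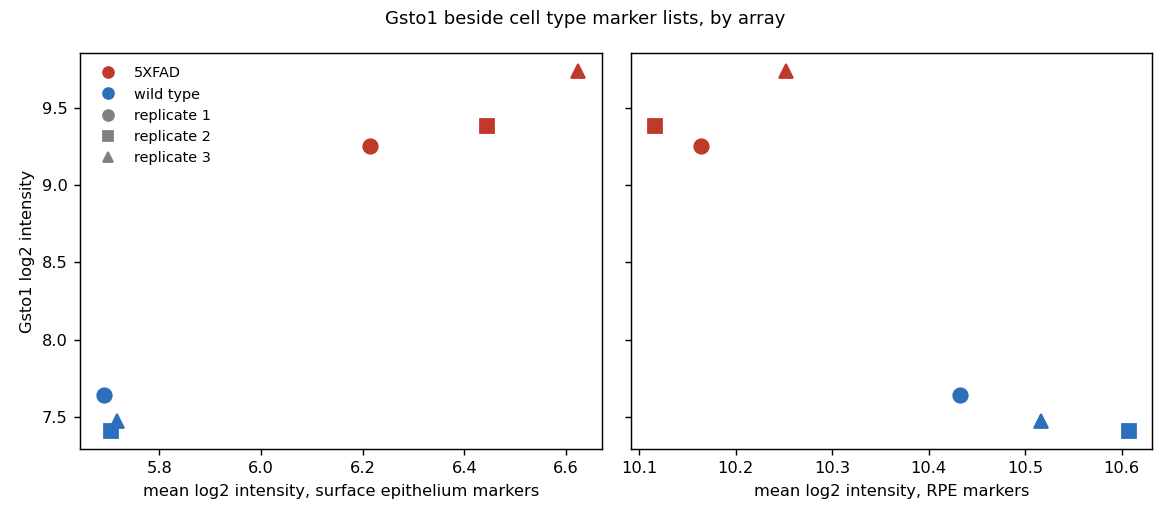
Gsto1 log2 intensity on each array against the mean log2 intensity of the surface epithelium markers (left) and RPE markers (right), coloured by group with symbols for replicates. The 5XFAD arrays lie at 6.21 to 6.62 for surface epithelium and 10.12 to 10.25 for RPE, and the wild-type arrays at 5.69 to 5.72 and 10.43 to 10.61.

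Likeness to Gsto1 within groups was measured over the 6 arrays as Pearson's r of deviations from the group means, which takes out the difference between genotypes. Of the 10 genes named from it, 5 were still among the 5 highest or 5 lowest after another quantile normalization. It was computed for 4678 genes at or above the median in both level and within-group SD. Gsto1 deviated by -0.21, -0.07 and 0.28 in 5XFAD replicates 1, 2 and 3 and by 0.13, -0.10 and -0.03 in wild type. The genes of highest r were the splicing factor gene Srsf5 (r = 0.9996), Ankrd16 (0.998), the transcription corepressor gene Drap1 (0.998), the amino acid transporter gene Slc7a10 (0.994) and the RNA-binding protein gene Hnrnpl (0.987). None of these 5 differed between genotypes past the threshold, which 0.0225% of all genes passed. Their differences were 0.26, 0.12, 0.11, -0.27 and 0.13 in that order (limma, Benjamini-Hochberg adjusted p from 0.81 to 0.95).

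The lowest r were those of Cd5l, a secreted macrophage protein gene (r = -0.998), the lysophospholipid acyltransferase gene Lpcat2 (-0.988), the selenophosphate synthetase gene Sephs2 (-0.987), Rhoj, a small GTPase gene of endothelium (-0.985), and the glycosylation enzyme gene Alg9 (-0.981). In all, 13 of the 4678 genes had a positive r of at least 0.95 in size and 45 a negative r of at least that size, and with 4 residual degrees of freedom such values are given without a p. The list means of macrophages and microglia and of T cells had r of -0.85 each with Gsto1, and the mean of the NRF2 list had r of -0.72. Gsto2, which is below the level and spread asked of those genes, had r of 0.81 with Gsto1. That value rested on 5XFAD replicate 3, where the 2 genes deviated by 0.28 and 0.20, and r was -0.53 without that array.

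**Figure D5:**
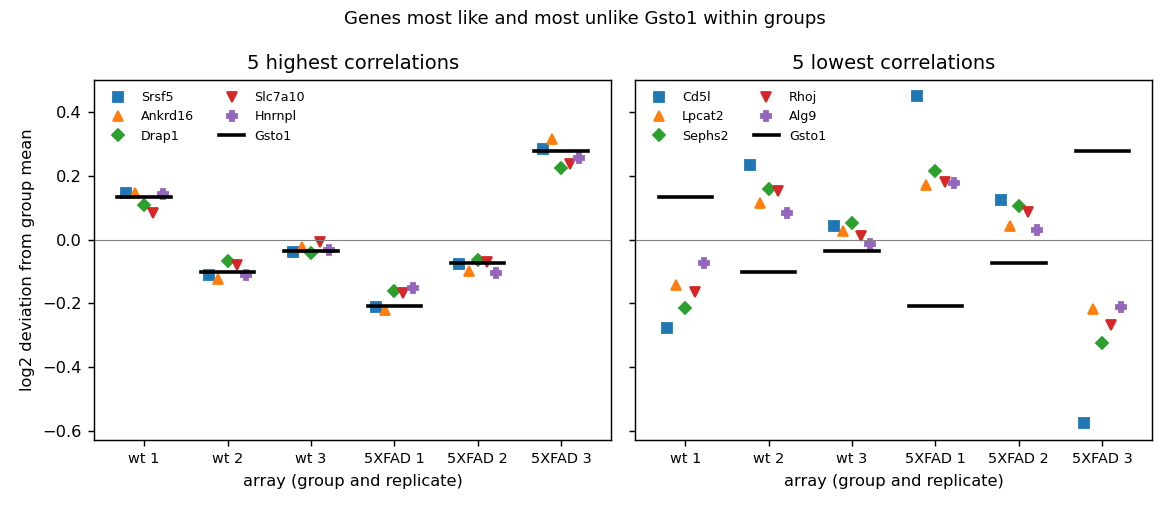
Log2 deviation from the group mean on each array for Gsto1 (black bars) and for the 5 genes with the highest (left) and lowest (right) within-group correlation with it. On 5XFAD replicate 3, where Gsto1 deviates by 0.28, the genes on the left lie between 0.22 and 0.32 and those on the right between -0.58 and -0.21.

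The transgene was checked only through App and the Thy1 gene, whose promoter drives it. The 5XFAD and wild-type means were 11.85 ± 0.12 and 11.77 ± 0.22 for App and 7.64 ± 0.14 and 7.36 ± 0.18 for Thy1 (SD, n = 3), neither of which passed the threshold (limma, Benjamini-Hochberg adjusted p = 0.96 and 0.80), and probes designed on mouse genes may miss transcripts of a human transgene. Median log2 intensity per array ran from 5.59 to 5.71, and Pearson correlations between arrays over the 22180 genes ran from 0.986 to 0.991.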

How the data were processed

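The files hold log2 intensities that the authors deposited as a normalized table. They were made with Affymetrix Expression Console 1.1 and RMA (background correction, quantile normalization and probe set summary), per the submitters' processing notes. RMA makes the arrays' distributions alike, so a change common to most genes cannot be seen. The genome build is not given in the sources used here. Of 33793 probe sets, 23521 had 1 symbol, 1814 several and 8458 none in the platform annotation. The probe set of highest mean was kept per gene, giving 22180 genes, of which 1082 had several.

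Groups of 3 and 3 arrays were compared with limma 3.58.1 (R 4.3.3; lmFit and eBayes, two-sided, Benjamini-Hochberg adjusted over all genes, threshold 0.05), tested on simulated data. The number of arrays limits the precision. Replicate numbers were not used to pair the arrays in the main comparison. Alternatives were other normalizations and priors, averaged probe sets, filters on dim genes, a replicate block and leaving out each array.

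The members and the 21 lists were chosen with earlier results of these data known. The text names the 3 members of smallest p per pathway list, the 5 nearest neighbours on each side and the 5 genes of highest and lowest correlation with Gsto1; predicted, receptor and small RNA genes were passed over in the last. Other names were chosen for their known role, or after their values were seen (Krt15, Krt4, Unc13c, Myh1, Neurl1a, Gsta3, Gstm4, Gstm7, Gstt1, Gstt2). Promoters and gene order came from RefSeq.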

Additional observations from a re-analysis of the deposited data

How the results depend on the processing

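Gsto1 differed by 1.81 to 2.06 when each array was left out in turn and by 1.94 to 1.96 under the other alternatives. The Gsto2 difference ran from -0.19 to -0.03 (limma, Benjamini-Hochberg adjusted p from 0.84 to 1.00), and it has no value without the dimmest 50% of genes. The genes called over all genes numbered 5, 8 without the dimmest 30%, 11 after another quantile normalization, 8 after median centring, 9 with a trended and robust prior, and 3 to 19 when arrays were left out. The arsenic list had 0 calls, 1 (Aqp3) under the replicate block, without the dimmest 30%, after quantile normalization, after centring and with the trended prior, and 0 to 1 when arrays were left out. The surface epithelium list had 4 calls, 3 to 4 under the other settings and 1 to 5 when arrays were left out. Its alternatives were chosen after seeing the data. The filter on the dimmest 50% of genes used the mean over all arrays. Krt4, Krt13 and Krt15 passed that filter through their 5XFAD signal, as their wild-type means lay below the median of all genes. The wild-type means of Krt4 and Krt15 also lay below every Gsto2 value, and Gsto2 stood at percentiles 31.2 to 36.7 of the genes. Krt4 and Krt15 may thus have passed the filter on the dimmest 30% through their 5XFAD signal too. The calls of the 3 genes under the 50% filter are therefore no separate check. The same holds for Krt4 and Krt15 under the 30% filter, whose 8 calls over all genes include both. The other pathway lists and the neighbours had 0 calls under every alternative run. Of the 10 genes most and least like Gsto1, 5 were shared after quantile normalization. Correlations of same-numbered arrays were -0.06, -0.05 and 0.13, and those of differently numbered arrays ran from -0.08 to 0.13. They gave no sign that the numbers pair the arrays, but so few arrays cannot exclude it. The replicate block gave 6 calls, 1.95 for Gsto1 and -0.09 for Gsto2. Cfap43 reversed to 0.0088 after quantile normalization. Leaving out arrays reversed 11 of the 20 neighbours, none of which passed the test as reported; the 5 among the 10 named had ranges of -0.046 to 0.035 for Cfap43, -0.046 to 0.094 for Sfr1, -0.19 to 0.15 for Slk, -0.21 to 0.016 for Sorcs3 and -0.036 to 0.067 for Xpnpep1. The cause was not tested. Gsto2 and 12 of the epithelial markers lie below the median signal, where the signal over background limits what a difference can show.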
